A study of Mus musculus with 18 samples.

Results

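The differentiation of control C2C12 cells was described from 6 of the 18 RNA-seq libraries of the series, namely the 3 libraries of control myoblasts and the 3 libraries of control myotubes. C2C12 is an established line of mouse muscle precursor cells. The libraries were chosen by their labels alone (line and stage), with no use of measured values, and each stage has replicates A, B and C. The control is a population of C2C12 cells that received the pX458 plasmid (Cas9 and EGFP, no guide RNA) by PEI transfection and was sorted by FACS for EGFP, so it is not a clone. The other 12 libraries come from the lines labelled Dlk1-Dio3 overexpressor and Dlk1-Dio3 knockout, each a clone grown from 1 cell after editing of the Meg3 proximal promoter with pairs of guides. Their responses are described only as a comparison at the end. These libraries also entered the fit to all 18 libraries, and so its gene filter, scaling and estimate of spread. Control myoblasts were kept in DMEM with fetal bovine serum, penicillin, streptomycin and glutamine. Control myotubes were grown to confluence in the same medium and then kept in DMEM with horse serum and the same additives until day 3. The stages therefore differ in serum and time in culture as well as in differentiation, and these cannot be told apart. The labels do not give the density of the myoblasts at harvest. Polyadenylated RNA was sequenced from unsorted cultures as far as the labels say, so a myotube library holds RNA from fused cells and from any cells that did not fuse. Fewer cells of a type and less RNA per cell cannot be told apart in such bulk samples. The labels do not say that A, B and C were separate cultures, so p-values measure only the spread between these libraries.

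Skeletal myoblasts divide in serum and, when serum is withdrawn at high density, leave the cell cycle, switch on muscle genes and fuse into multinucleated myotubes. MyoD and Myf5 commit cells to the lineage, and myogenin and the MEF2 factors drive the late program, in which membrane fusogens join the cells and sarcomeres, the contractile units of actin, myosin and titin, are assembled. The Cdk inhibitor p21 and the retinoblastoma proteins hold the nuclei out of the cycle, whereas Id proteins bind the E-protein partners of MyoD and oppose differentiation. In C2C12 cultures some mononucleated cells stay undifferentiated as reserve cells.

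The control libraries hold 42376830 to 49265831 gene counts for myoblasts and 48217062 to 60491782 for myotubes. Levels are CPM, gene counts scaled to the effective size of the library, and values are given in the order of libraries A, B and C. Transcripts of the edited locus did not separate the control from the knockout line: Meg3 had 0 counts in all 6 control libraries and in all 6 knockout libraries, and between 5222 and 7763 counts in the overexpressor libraries. In the control, Mirg had 0 counts in each library and Rian at most 1. Each pair of control replicates differed by more than counting noise (chi-square per degree of freedom 6.70 to 23.8 over genes), so none was deposited in duplicate. The biological coefficient of variation, the spread of a typical gene beyond counting noise, was 6.51% among myoblast and 9.23% among myotube libraries.

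Most of the measured transcriptome differed between the 2 stages. Of 17912 genes tested, 6074 were higher (33.9%) and 5166 lower (28.8%) in myotubes at an adjusted p below 0.05, or 62.8% in either direction. Counts of higher and lower members in every gene list below stand against these shares. A change of at least 2-fold was called for 2709 higher and 2430 lower genes (28.7% of genes tested), and one of at least 8-fold for 922 higher and 575 lower genes. The median log2 fold change over all genes tested was 0.07. When the libraries were scaled by their totals alone, this median shifted by -0.24, and 4336 genes were called higher and 7091 lower, so the higher share of calls moved from 54.0% to 37.9%. Small changes are thus relative to the scaling. Among protein-coding genes 67.3% were called, against 54.9% of long intergenic noncoding genes. A further description of the change is its concentration: the 10 most abundant genes took 4.76 to 4.80% of counts in myoblasts and 8.2 to 8.46% in myotubes.

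**Figure D1:**
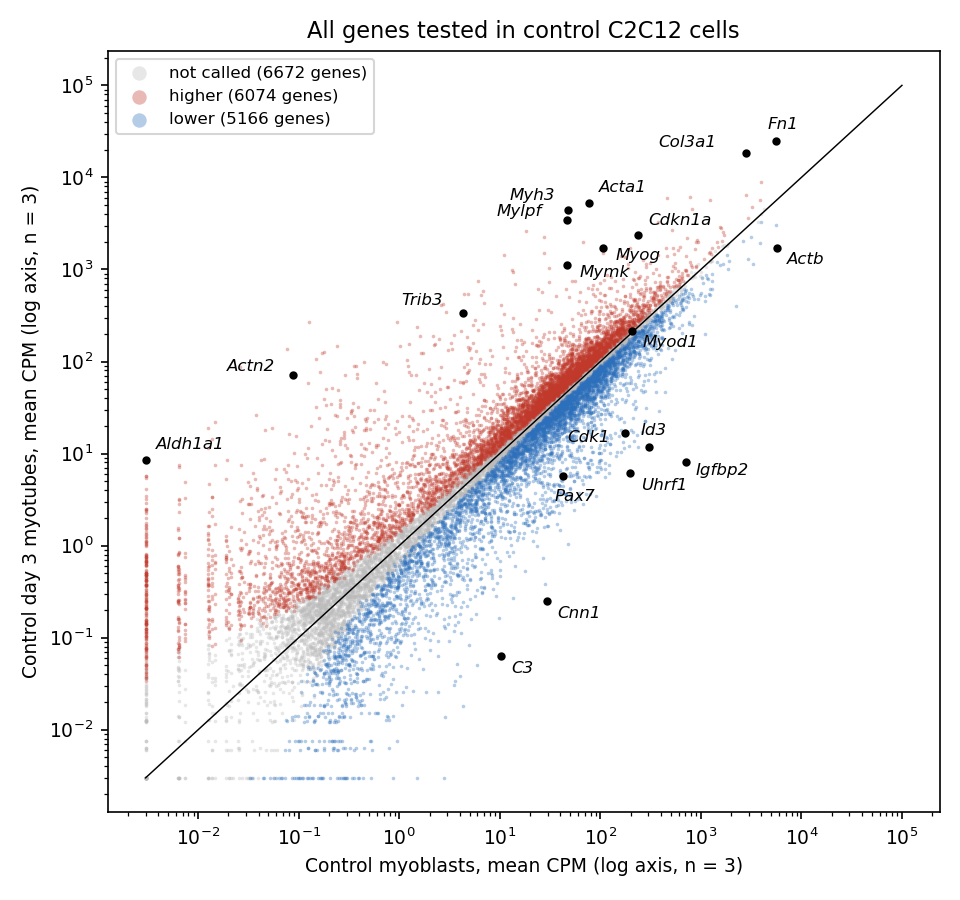
Mean level of each tested gene in control myotubes (vertical, CPM, log axis) against control myoblasts (horizontal, CPM, log axis), n = 3 libraries a stage. A mean of 0 is drawn at the lower or left edge, the line marks equal levels, red points are the 6074 genes called higher and blue points the 5166 called lower. Fn1 and Col3a1 lie at the top right, Actn2 and Aldh1a1 far above the line, and Cnn1 and C3 far below it.

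The genes with the greatest fold changes mixed muscle genes with genes better known from other tissues. Among the 12 highest were Myh8, the perinatal myosin heavy chain, and Actn2, the sarcomeric alpha-actinin of the Z-disc. Actn2 measured 0.0936, 0.0384 and 0.134 CPM in myoblasts and 75.5, 69.1 and 70.5 CPM in myotubes (log2 fold change 9.66, SE 0.32, adjusted p = 5.08e-13). Aldh1a1, a retinaldehyde dehydrogenase that makes retinoic acid, was at or under 3 counts in each myoblast library and measured 8.73, 8.17 and 8.69 CPM in myotubes, at least 128-fold higher. Car6, a secreted carbonic anhydrase, was likewise at least 1321-fold higher, Adprhl1, an ADP-ribosylhydrolase-like protein of striated muscle, at least 284-fold, and Limch1, an actin-binding protein, at least 84.9-fold. Each of these was at the floor in every myoblast library and in none of the myotube libraries. The remaining members of the 12 were Ighm (at least 85.9-fold), Tac4 (at least 216-fold), Psg28 (at least 112-fold), Akr1b7 (at least 174-fold), Hectd2os, a noncoding gene antisense to Hectd2 (at least 108-fold), and Scara5, a ferritin receptor (log2 fold change 11.03).

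Among the 12 lowest were C3, the central complement component (log2 fold change -7.23), Cnn1, a calponin of smooth-muscle type cytoskeletons (-6.89), and Igfbp2, which binds insulin-like growth factors (-6.46). Igfbp2 measured 672, 739.9 and 698 CPM in myoblasts and 6.06, 9.22 and 8.77 CPM in myotubes. Its levels in the stages differ far more than the replicates do, and its neighbour on chromosome 1, Igfbp5, went the other way (log2 fold change 1.57). Others of the 12 were the receptors Htr1b (-6.77), Avpr1a (-5.93), Sigirr (-5.01) and Stra6 (-4.98), the adhesion molecule Mcam (-6.21), Ifitm1 (-5.66), the repair exonuclease Exo1 (-5.20) and Uhrf1 (-5.02).

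By absolute change in CPM the rise was led by matrix genes. Fn1, fibronectin, at chr1:71585520-71653200 (GRCm38, minus strand), measured 6141, 5320 and 5416 CPM in myoblasts and 26211, 24141 and 24010 CPM in myotubes (log2 fold change 2.14, SE 0.08, adjusted p = 9.88e-14). Col3a1, the chain of type III collagen, rose from 2752, 2898 and 2800 CPM to 19044, 17656 and 18215 CPM (log2 fold change 2.7, SE 0.11, adjusted p = 3.52e-13). In both cases every myotube library lay above every myoblast library. Fbn1, Col1a1, Sparc, Col5a1, Col6a1 and Col1a2 were also among the 10 greatest rises, and Acta1 and Myh3 were the only sarcomere genes among them. Of the 10 greatest falls, Actb, Vim, Flna, Acta2, Tubb5, Myh9 and Fscn1 encode cytoskeletal proteins, and the others were the pyruvate kinase gene Pkm, the annexin Anxa2 and Ptms, which encodes parathymosin. Actb, cytoplasmic beta-actin, measured 5530, 5684 and 5910 CPM in myoblasts and 1676, 1903 and 1596 CPM in myotubes (log2 fold change -1.73).

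The myogenic factors split by stage. Of 25 tested factors and partners, 11 rose and 10 fell, with a median log2 fold change of 0.05, or 0.30 with the 2 genes at or under 3 counts in a stage set at their bound. All 4 MEF2 genes rose, and 5 of 8 progenitor factors fell. Pax7, which marks muscle stem cells, measured 40.2, 43.8 and 42.4 CPM in myoblasts and 5.70, 5.61 and 5.61 CPM in myotubes (log2 fold change -2.90, SE 0.10, adjusted p = 2.7e-14). Myf5 measured 26.5, 23.7 and 26.4 CPM and 4.85, 6.93 and 6.82 CPM (log2 fold change -2.04, SE 0.19, adjusted p = 7.26e-08). Both were lower in every myotube library. Myod1 was not called: it read 193, 216 and 217 CPM in myoblasts and 233, 219.9 and 196 CPM in myotubes, the ranges overlapped, and the log2 fold change was 0.05 (adjusted p = 0.662).

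Myog, at chr1:134289989-134292548 (GRCm38, plus strand), measured 99.4, 126 and 90.3 CPM in myoblasts and 1764, 1768 and 1663 CPM in myotubes (log2 fold change 4.04, SE 0.15, adjusted p = 4.54e-13). Mef2c measured 0.131, 0.135 and 0.223 CPM and 81.5, 66.7 and 84.8 CPM (log2 fold change 8.90, SE 0.43, adjusted p = 1.06e-10). Myog was thus already measurable in every myoblast library, whereas Mef2c was close to 0 in all 3. Myf6, the adult member of the MyoD family, rose by 3.76 on the log2 scale beside its genomic neighbour Myf5, which fell. Mef2a (2.51), Mef2d (0.97) and the TEAD factor Tead4 (3.53) rose, and Tcf3, which encodes the E-protein partners E12 and E47, fell (-0.95).

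The fusion list moved in both directions, with 11 of 27 tested genes higher and 12 lower (median -0.05), against 33.9% and 28.8% of all genes. Mymk, myomaker, measured 42.5, 56.4 and 40.5 CPM in myoblasts and 1206, 1159 and 1013 CPM in myotubes (log2 fold change 4.60, SE 0.19, adjusted p = 6.20e-12). Mymx, myomixer, the micropeptide that acts with it, measured 4.87, 6.33 and 4.90 CPM and 168, 168 and 136 CPM (log2 fold change 4.87, SE 0.14, adjusted p = 7.02e-15). The 2 fusogens rose in every library by about the same log2 amount. Cav3, the muscle caveolin, rose by 9.44, the engulfment adaptor Elmo1 by 5.29 and the membrane repair gene Dysf by 2.76. The genes that fell included the Ig receptors Kirrel (-1.08) and Kirrel3 (-1.58), the Rac activators Dock1 (-1.04) and Dock5 (-1.01), and Anxa1 (-1.16). M-cadherin, Cdh15, was not called (0.19 (adjusted p = 0.0544)), although it was called without myoblast library B (0.24, adjusted p = 0.0415).

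**Figure D2:**
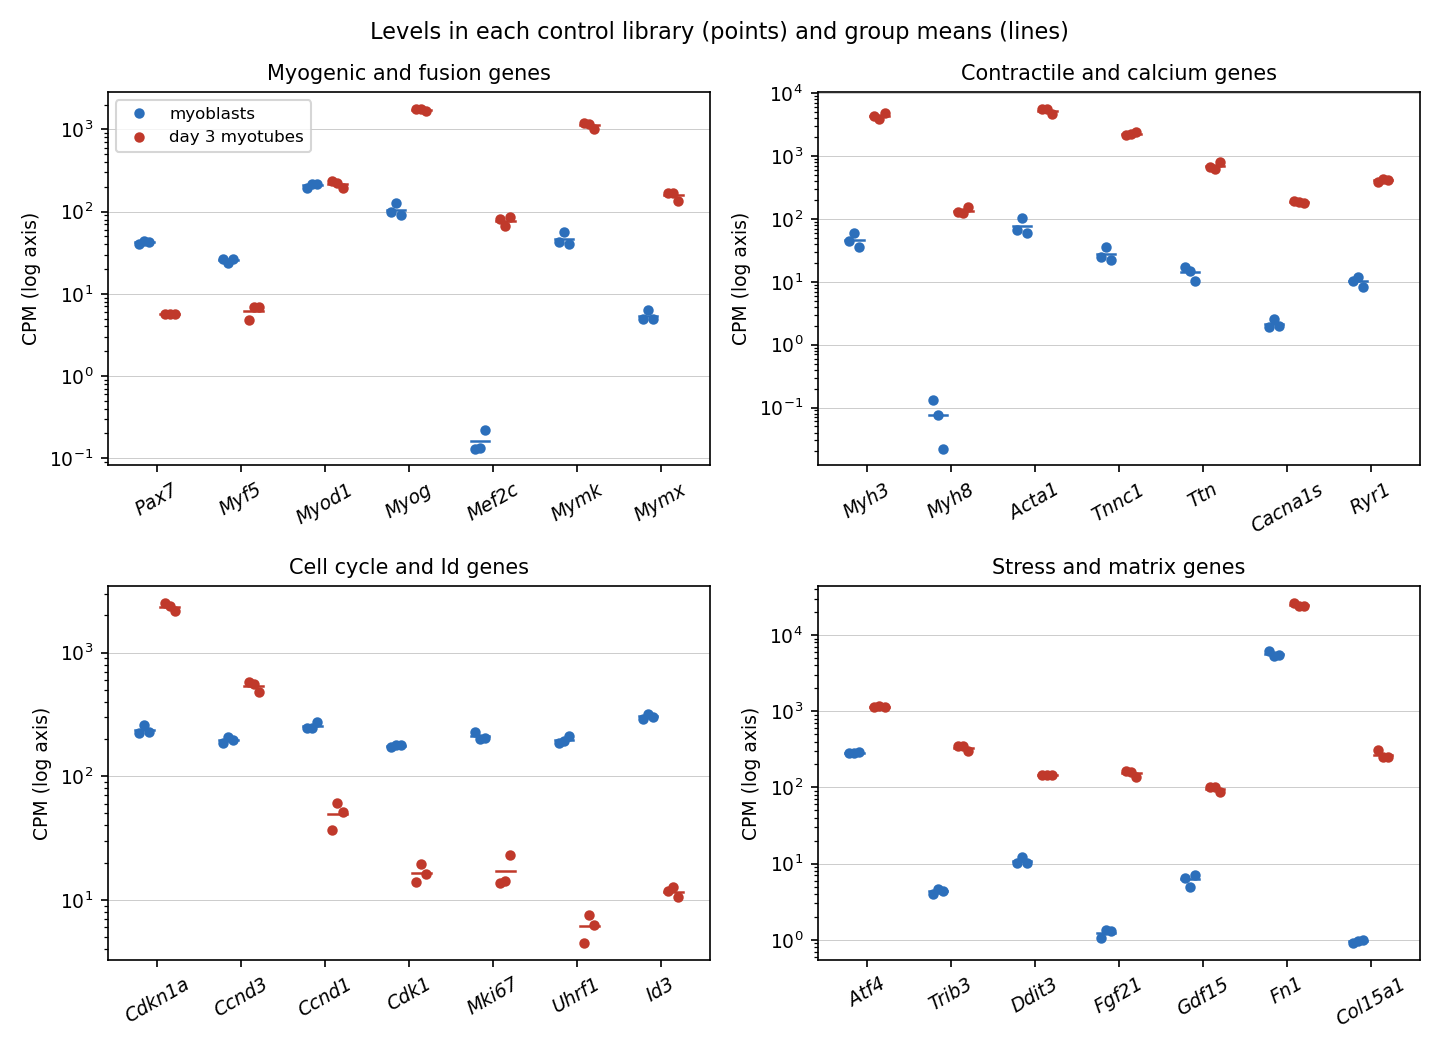
Level of 28 named genes in each control library (points, CPM, log axis) with the mean of each stage (line), 3 myoblast and 3 myotube libraries. In 27 of the panels' genes the 2 stages do not overlap, and Myod1 is the exception. The same held for 12665 of all 17912 genes tested, and the genes drawn were chosen with results known.

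Sarcomere genes rose together. All 26 genes of the thick filament and M-band were higher, each by at least 2-fold, with a median log2 fold change of 6.15, or 5.98 with the 4 genes at the floor set at their bound. Together they took 0.0219% of counts in myoblasts and 1.49% in myotubes. Of 40 thin-filament and Z-disc genes 34 rose and 2 fell, with a median of 4.69, against 33.9% and 28.8% of all genes. Myh3, the embryonic myosin heavy chain, measured 45.1, 60.1 and 36.3 CPM in myoblasts and 4316, 3967 and 4947 CPM in myotubes (log2 fold change 6.55, SE 0.24, adjusted p = 2.05e-12). Acta1, skeletal alpha-actin, measured 65.9, 105 and 59.6 CPM and 5650, 5588 and 4773 CPM (log2 fold change 6.12, SE 0.28, adjusted p = 5.09e-11). Every myotube library exceeded every myoblast library for both, and library B was the highest of the myoblasts for both.

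The 6 skeletal myosin heavy chain genes that lie side by side on chromosome 11, from Myh3 at chr11:67078300-67102291 to Myh13 at chr11:67321658-67371586 (GRCm38, all on the plus strand), rose together. Per kilobase of exon, the myotube level was 728 CPM for Myh3, 65.6 for Myh1 (type IIx), 17.7 for Myh4 (type IIb), 11.5 for Myh8, 2.81 for Myh2 (type IIa) and 0.539 for Myh13 (extraocular). The embryonic chain was thus more than 10 times as abundant as any neighbour at day 3, although its log2 fold change (6.55) was below those of Myh4 (9.43) and Myh8 (10.69). The order of the lower members depends on the length used: per kilobase of the longest transcript, an alternative added after the values were seen, Myh8 read 22.1 CPM and lay above Myh4 at 17.7. The slow chain Myh7 on chromosome 14 reached 47.1 CPM per kilobase and its neighbour Myh6 9.73. These genes are near-identical over long stretches, so reads could be split or lost between them and the levels of the low members are uncertain.

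Other members by role were the light chains Myl1 (6.93), Myl4 (7.01) and Mylpf (6.20), the giant proteins Ttn (5.61) and Neb (5.71), the myosin chaperone Unc45b (5.35) and the methyltransferase Smyd1 (4.47). Of 8 troponin genes 7 rose, among them Tnnc1 (6.35), Tnni2 (6.4) and Tnnt3 (6.09). The Z-disc genes Tcap (6.78) and Myoz2 (7.96) rose, and Myot was at least 61.2-fold higher. The 2 that fell were Tnni3, the cardiac troponin I, at -1.18, and the widely expressed tropomyosin Tpm3 at -0.37. Tnni3 was low in both stages, with means of 0.764 CPM in myoblasts and 0.329 CPM in myotubes.

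The promoters of 4 muscle genes are shown because MyoD and myogenin bind the E-box CAGCTG, which was found in 32.8% of the promoter windows of thick and thin filament genes, 39.1% of those of excitation-contraction genes and 33.3% of those of neuromuscular junction genes, against 13.0% of all 32851 windows. The share varied in other lists. It was 35.3% for creatine, adenylate and oxygen store genes, 29.4% for proteolysis and autophagy genes and 21.1% for fusion genes. Myogenic factors had it in 14.8% of windows and the dystrophin complex and caveolae in 5.56%. The excess was not confined to muscle lists, with 26.7% of the windows of Notch and Wnt genes. Each sequence is the 250 bases before the RefSeq start of the gene on GRCm38.p6, written 5′ to 3′ along the gene, with CAGCTG in capitals (a palindrome, so both strands read alike). They lie at chr2:73580339-73580588 (Chrna1, minus strand), chr1:87205561-87205810 (Chrng, plus), chr7:127211358-127211607 (Mylpf, plus) and chr8:123894776-123895025 (Acta1, minus, with CATTCC, the MCAT motif of TEAD factors, or its reverse complement also in capitals).
Chrna1: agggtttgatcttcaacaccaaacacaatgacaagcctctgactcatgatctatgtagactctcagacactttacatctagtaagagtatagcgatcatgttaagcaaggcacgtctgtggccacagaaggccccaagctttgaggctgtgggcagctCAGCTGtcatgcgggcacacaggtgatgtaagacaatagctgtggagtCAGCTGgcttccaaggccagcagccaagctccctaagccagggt
Chrng: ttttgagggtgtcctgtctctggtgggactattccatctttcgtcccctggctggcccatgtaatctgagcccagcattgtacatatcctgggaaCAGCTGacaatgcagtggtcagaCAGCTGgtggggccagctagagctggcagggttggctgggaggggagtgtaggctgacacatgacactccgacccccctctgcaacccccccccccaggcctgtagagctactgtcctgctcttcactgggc
Mylpf: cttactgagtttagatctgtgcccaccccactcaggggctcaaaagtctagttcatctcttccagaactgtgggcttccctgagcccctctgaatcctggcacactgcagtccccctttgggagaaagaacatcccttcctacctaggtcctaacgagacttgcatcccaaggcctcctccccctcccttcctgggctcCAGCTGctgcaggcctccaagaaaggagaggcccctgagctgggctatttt
Acta1: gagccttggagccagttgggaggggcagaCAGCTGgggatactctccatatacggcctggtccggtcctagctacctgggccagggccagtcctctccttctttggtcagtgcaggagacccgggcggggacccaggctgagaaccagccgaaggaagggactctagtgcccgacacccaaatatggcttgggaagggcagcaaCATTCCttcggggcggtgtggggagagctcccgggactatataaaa
Counting back from the start of the gene, the E-box begins at -92 and -44 in Chrna1, -155 and -132 in Chrng, -51 in Mylpf and -221 in Acta1, where the MCAT match begins at -46. No matches overlap each other. The MEF2 core was found in 21.1% of thin filament windows, 3.85% of thick filament windows and 3.20% of all windows. A match of letters is a description and not a measured site.

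Excitation-contraction coupling genes mostly rose, with 23 of 27 tested higher and 2 lower (median 2.82). All 9 genes of calcium stores and pumps rose, and 12 of 13 genes of calcium release. Cacna1s, the voltage sensor of the T-tubule, measured 1.95, 2.56 and 1.96 CPM in myoblasts and 196, 189 and 183 CPM in myotubes (log2 fold change 6.45, SE 0.20, adjusted p = 9.80e-14). Ryr1, the calcium release channel that it opens, measured 10.4, 11.9 and 8.29 CPM and 384, 435 and 426 CPM (log2 fold change 5.34, SE 0.16, adjusted p = 2.54e-14). Both were higher in every myotube library. The calsequestrins Casq1 (8.04) and Casq2 (6.79) and the calcium pump Atp2a1 (5.06) rose as well. The muscle chloride channel Clcn1, which belongs to mature fibres, fell (-1.51) from a low mean of 0.643 CPM to 0.219 CPM. Asph fell as well (-0.70).

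Of 15 tested neuromuscular junction genes 12 rose and 2 fell (median 1.48). All 5 acetylcholine receptor subunits were higher. The fetal subunit Chrng rose by 4.43, from 25.9, 30.2 and 23.2 CPM to 595, 558 and 555 CPM. The adult subunit Chrne was at or under 3 counts in myoblasts and read 0.890, 1.21 and 1.12 CPM in myotubes, at least 16.1-fold higher. At day 3 the adult subunit thus made up 0.465% of the summed Chrng and Chrne level per kilobase. Chrna1, whose promoter is shown above, rose less (1.04), from 520.2, 556 and 526 CPM to 1150, 1095 and 1048 CPM. Ache (4.88) and its collagen tail Colq (6.21) rose, whereas the clustering protein Rapsn (-0.36) and the organiser Agrn (-0.37) fell.

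In the dystrophin complex and caveolae 14 of 19 genes rose and 3 fell (median 0.78). Dmd, dystrophin, was at the floor in myoblasts and read 1.29, 1.19 and 1.60 CPM in myotubes, at least 20.4-fold higher, while its homologue Utrn was not called (0.25 (adjusted p = 0.129)). The sarcoglycan Sgca (1.64) and the muscle cavin Cavin4 (2.90) rose. General caveolar genes were divided: Cavin1 (-0.76) and Cavin3 (-0.82) fell, and Cav1 rose (0.89). Of the 7 caveolae genes 4 were higher and 2 lower.

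Genes of DNA replication and mitosis fell throughout. All 41 replication genes and all 42 mitosis genes tested were lower, with median log2 fold changes of -2.47 and -3.40, against 28.8% lower calls among all genes. Every mitosis gene and 37 replication genes fell at least 2-fold. The replication genes took 0.462% of counts in myoblasts and 0.0799% in myotubes, and the mitosis genes 0.525% and 0.0467%. Cdk1, the mitotic kinase, measured 173, 178 and 179.8 CPM in myoblasts and 14.1, 19.6 and 16.3 CPM in myotubes (log2 fold change -3.41, SE 0.11, adjusted p = 1.56e-14). Mki67, the proliferation antigen Ki-67, measured 228, 199.6 and 204 CPM and 13.8, 14.3 and 23.1 CPM (log2 fold change -3.62, SE 0.29, adjusted p = 3.42e-08). Both remained measurable in all 3 myotube libraries, well below the myoblast range, and among myotubes Cdk1 was lowest in A and Mki67 highest in C.

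The deepest falls of the replication list were Uhrf1, which guides maintenance DNA methylation (-5.02), the licensing factor Cdc6 (-4.44), the helicase subunit Mcm5 (-4.34) and the thymidine kinase Tk1 (-4.34). The shallowest were the origin and GINS subunits Orc6 (-0.44) and Gins4 (-0.45). In the mitosis list Espl1, separase, fell by 4.33, Kif23 by 4.05 and Birc5, survivin, by 4.04, all on the log2 scale.

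Among the regulators, p21 and p57 rose and most cyclins and kinases fell. Cdkn1a, which encodes p21, at chr17:29090976-29100727 (GRCm38, plus strand), measured 225, 259.8 and 227 CPM in myoblasts and 2515, 2394 and 2176 CPM in myotubes (log2 fold change 3.31, SE 0.11, adjusted p = 1.74e-14). Cdkn1c, which encodes p57, rose by 2.22, Rb1 by 1.12 and Gadd45a by 3.40, whereas Cdkn1b, which encodes p27, was not called (-0.07 (adjusted p = 0.529); -0.31 and called lower with scaling by library totals) and Cdkn2d fell (-1.80). The D-type cyclins diverged. Ccnd1 read 248, 244 and 276 CPM in myoblasts and 36.6, 60.2 and 51.1 CPM in myotubes (log2 fold change -2.38, SE 0.20, adjusted p = 4.95e-08), and Ccnd3 185, 207 and 195 CPM and 583, 558 and 481 CPM (log2 fold change 1.47, SE 0.11, adjusted p = 1.47e-09). Neither gene's stages overlapped, and Ccnd3 was the only cyclin or kinase of the 12 listed that rose, while 10 fell. E2f7, a repressor made in cycling cells, fell by 4.46 on the log2 scale, and E2f2 rose (1.94).

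Promoters of 3 mitotic genes are shown because the CCAAT box, bound by NF-Y, and the CHR element TTTGAA are the pair known from cell-cycle promoters. CCAAT occurred in 75.7% of mitosis windows and 64.1% of replication windows against 33.8% of all windows, and TTTGAA in 35.1% of mitosis windows against 16.0%. The E2F motif TTTCCCGC was in 7.69% of replication windows and 0.895% of all. The windows are chr10:69352913-69353162 (Cdk1), chr9:70421555-70421804 (Ccnb2) and chr4:118437344-118437593 (Cdc20), all on the minus strand of GRCm38.p6 and from RefSeq, with both motifs or their reverse complements in capitals.
Cdk1: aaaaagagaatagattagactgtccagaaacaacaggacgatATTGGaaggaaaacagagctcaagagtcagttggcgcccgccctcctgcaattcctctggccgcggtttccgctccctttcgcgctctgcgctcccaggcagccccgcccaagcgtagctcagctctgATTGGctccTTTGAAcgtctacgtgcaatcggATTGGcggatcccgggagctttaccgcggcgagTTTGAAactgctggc
Ccnb2: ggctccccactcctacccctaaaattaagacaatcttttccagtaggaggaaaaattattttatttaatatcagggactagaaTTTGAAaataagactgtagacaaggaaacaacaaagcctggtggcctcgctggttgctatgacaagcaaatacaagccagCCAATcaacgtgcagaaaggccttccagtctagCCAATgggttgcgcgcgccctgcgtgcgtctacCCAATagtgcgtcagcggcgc
Cdc20: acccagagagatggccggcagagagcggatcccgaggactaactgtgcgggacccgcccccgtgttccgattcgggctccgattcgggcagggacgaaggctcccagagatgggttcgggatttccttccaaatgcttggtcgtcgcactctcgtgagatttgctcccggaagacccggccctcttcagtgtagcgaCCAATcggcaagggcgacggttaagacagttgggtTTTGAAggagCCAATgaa
The CCAAT box begins at -208, -80 and -48 in Cdk1, at -87, -54 and -21 in Ccnb2, and at -53 and -8 in Cdc20. The CHR element begins at -71 and -15 in Cdk1, -167 in Ccnb2 and -18 in Cdc20, where it lies close to a CCAAT box. Ccnb2, cyclin B2, fell by 3.93 and Cdc20, an activator of the anaphase-promoting complex, by 3.98 on the log2 scale.

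Genes of the signals that hold back or promote myogenesis moved in both directions. Of 4 Id genes 3 fell, and Id4 was not called (-0.57 (adjusted p = 0.184)) except without myotube library C (-0.97, adjusted p = 0.0485). Id3 measured 293, 320.2 and 302 CPM in myoblasts and 11.7, 12.7 and 10.6 CPM in myotubes (log2 fold change -4.71, SE 0.16, adjusted p = 1.14e-13). Its stages were far apart, while Id1 (-1.33) and Id2 (-1.08) fell less. In the TGF-beta and BMP list, which holds the Id genes, 13 of 35 rose and 11 fell, shares near the 33.9% and 28.8% of all genes. Follistatin, Fst, which binds myostatin and activins, rose (2.76), the inhibitory SMAD gene Smad6 (-1.64) and the pseudoreceptor Bambi (-2.21) fell, and Bmp6 was at least 7.58-fold higher from the floor.

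Notch and Wnt genes were even, with 17 of 36 higher and 17 lower, against 33.9% and 28.8% of all genes. The receptors Notch1 (-1.03) and Notch3 (-1.54), the glycosyltransferase Lfng (-3.60) and the target Hey1 (-1.46) fell, while Heyl (1.73) and Hes6 (0.96) rose. Of 11 Wnt antagonists and targets 8 rose, including Sfrp1 (2.15), Sfrp2 (1.63) and Axin2 (1.30), and the ligand Wnt5a rose (2.51) while the agonist Rspo3 fell (-3.65).

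Both insulin-like growth factor ligands rose. Igf2 measured 4.72, 4.90 and 3.94 CPM in myoblasts and 26.5, 24.1 and 20.6 CPM in myotubes (log2 fold change 2.39, SE 0.14, adjusted p = 4.31e-11). Igf1 rose by 2.78, and the binding proteins Igfbp4 (4.60), Igfbp5 (1.57) and Igfbp3 (1.40) rose against the fall of Igfbp2 given above. The receptor Igf1r fell slightly (-0.28). Of 28 genes of FGF, HGF and early-response signalling 9 rose, a share near the 33.9% of all genes, and 12 fell, among them the receptors Fgfr4 (-3.14) and Met (-1.86) and the AP-1 subunit Fosl1 (-2.10), which fell, and the feedback inhibitor Spry1, which rose (4.81).

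Extracellular matrix genes took a larger share of the RNA in myotubes. Of 45 tested genes 28 rose and 9 fell (median 0.71; 26 and 14 with scaling by library totals), and their share of counts went from 4.39% to 10.3%. Of 16 collagen genes 11 rose. Col1a1 measured 775, 805 and 757 CPM in myoblasts and 5693, 6769 and 6089 CPM in myotubes (log2 fold change 2.99, SE 0.18, adjusted p = 8.43e-10). Col15a1, a basement-membrane collagen, measured 0.917, 0.961 and 0.980 CPM and 309.6, 249.7 and 248 CPM (log2 fold change 8.14, SE 0.14, adjusted p = 1.92e-17). The stages did not overlap for either. Col6a2 (3.12) and Col6a1 (2.47), neighbours on chromosome 10, rose, as did fibrillin Fbn1 (3.69), elastin Eln (6.51), periostin Postn (3.87) and the protease inhibitor Timp3 (3.11). The genes that fell included the basement-membrane linker Nid1 (-1.74), the YAP target Ccn1 (-1.44), the cross-linking enzyme Loxl2 (-1.11) and the gelatinase Mmp9 (-4.55). Mmp9 was low already in myoblasts, with means of 0.820 CPM there and 0.0316 CPM in myotubes.

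Markers of fibroblasts moved with the matrix. Of 7 fibroblast markers 5 were higher (Dpt, Lum, Dcn, Col14a1 and Pi16), Pdgfra was lower (-0.39) and Thy1 was too low to be tested, and their summed level went from 35.4 to 37.8 CPM in myoblasts to 203 to 234 CPM in myotubes. Dcn, decorin, measured 2.17, 1.96 and 1.49 CPM and 54.2, 44.1 and 41.6 CPM (log2 fold change 4.63, SE 0.19, adjusted p = 6.34e-13), and Lum, lumican, was at least 37.8-fold higher from the floor. Their part in the matrix rise was not tested. Dcn and Lum are also members of the matrix list.

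Genes of a stress program rose in the control myotubes. All 10 genes of the integrated stress response, in which ATF4 switches on genes of amino acid supply and redox balance, were higher, each by at least 2-fold, with a median of 3.41, and their share of counts went from 0.0761% to 0.327%. Atf4 measured 285, 285 and 288 CPM in myoblasts and 1140, 1176 and 1144 CPM in myotubes (log2 fold change 2.01, SE 0.06, adjusted p = 5.11e-15). Trib3, a pseudokinase target at chr2:152337422-152344032 (GRCm38, minus strand), measured 3.99, 4.71 and 4.34 CPM and 352, 348 and 299 CPM (log2 fold change 6.26, SE 0.16, adjusted p = 2.07e-15). Ddit3, which encodes CHOP, measured 10.1, 12.2 and 10.1 CPM and 145, 144 and 147 CPM (log2 fold change 3.75, SE 0.12, adjusted p = 1.05e-14). For all 3 the stages were well separated and the replicates close. The Ddit3 gene model overlaps others on the opposite strand.

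The other members were Atf3 (5.61), the asparagine synthetase Asns (3.08), the glutathione-degrading enzyme Chac1 (3.96), the cystine transporter subunit Slc7a11 (4.35), Sesn2 (2.33) and the serine synthesis genes Psat1 (1.83) and Phgdh (1.27). The secreted stress factor Fgf21 measured 1.07, 1.36 and 1.29 CPM in myoblasts and 162, 161 and 136 CPM in myotubes (log2 fold change 6.95, SE 0.20, adjusted p = 1.70e-14). Gdf15 measured 6.42, 4.98 and 7.2 CPM and 102, 101 and 86.0 CPM (log2 fold change 3.96, SE 0.16, adjusted p = 2.83e-13). Neither overlapped between stages. Chaperones of the endoplasmic reticulum did not move as a group, with 4 of 9 higher and 3 lower (median -0.03). Hspa5, which encodes BiP, read 0.27 (adjusted p = 0.0198). Its call was lost without myoblast library A (adjusted p = 0.0879) or myotube library C (adjusted p = 0.0876), and with scaling by library totals (0.03). Herpud1 rose (2.30), and Sdf2l1 fell (-2.33). Of 9 heat shock genes 6 rose and 2 fell. The small heat shock genes Hspb7 (7.34), Hspb3 (6.66) and Cryab (1.54) rose, and Hspb6 (-0.99) and Hspb1 (-0.42) fell.

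The promoters of 2 of these genes are shown because each holds TGATGNAA, the letters of the C/EBP-ATF response element (CARE) that ATF4 binds, which was in 36.4% of the 11 stress-response windows and 3.45% of all windows. The motif was chosen after the expression values were seen. The windows are chr3:50443614-50443863 (Slc7a11, minus strand) and chr2:119350992-119351241 (Chac1, plus strand), GRCm38.p6, RefSeq, with matches on either strand in capitals.
Slc7a11: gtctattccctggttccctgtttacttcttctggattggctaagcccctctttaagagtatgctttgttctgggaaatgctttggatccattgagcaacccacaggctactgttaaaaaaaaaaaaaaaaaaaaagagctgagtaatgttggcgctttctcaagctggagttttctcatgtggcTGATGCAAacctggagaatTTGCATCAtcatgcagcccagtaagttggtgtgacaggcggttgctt
Chac1: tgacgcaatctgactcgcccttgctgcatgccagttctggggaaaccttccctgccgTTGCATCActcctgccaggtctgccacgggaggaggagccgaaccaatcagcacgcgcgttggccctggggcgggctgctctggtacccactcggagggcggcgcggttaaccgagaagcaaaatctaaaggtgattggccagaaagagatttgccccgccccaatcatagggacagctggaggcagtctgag
The matches begin at -66 and -47 in Slc7a11 and at -193 in Chac1. The windows of Trib3 and Ddit3 did not hold these letters.

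Proteolysis and autophagy genes rose, with 16 of 20 higher and 2 lower (1 lower without myotube library C), and a median of 1.28. The atrophy-related ubiquitin ligases diverged: Trim63, which encodes MuRF1, rose (6.44), from 0.431, 0.327 and 0.267 CPM to 29.8, 29.0 and 31.5 CPM, and Fbxo32, which encodes atrogin-1, fell slightly (-0.47), from 54.2, 55.0 and 52.1 CPM to 40.4, 33.4 and 43.0 CPM. Klf15 was at least 113-fold higher from the floor, and Trim72, a membrane repair gene, rose (6.87). Autophagy receptor Sqstm1 (1.5) and cathepsin Ctsl (2.24) also rose.

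Respiratory chain genes mostly rose by small amounts, apart from the muscle isoforms and the complex III gene Uqcrq. Mean levels of Uqcrq were 96.0 CPM in myoblasts and 287 CPM in myotubes. Of 77 nuclear genes of the respiratory chain 56 rose and 5 fell, but the median was 0.41 and only 4 rose 2-fold. With scaling by library totals these counts were 35 and 15 and the median 0.17. All 31 called genes of complex I, out of 36, were higher, for example Ndufa13 (0.97). The muscle subunits Cox6a2 (9.22), Cox8b (6.35) and Cox7a1 (2.00) changed most. Cox6a2 measured 0.169, 0.404 and 0.156 CPM in myoblasts and 153, 143 and 146 CPM in myotubes. The coactivator Ppargc1a (2.13) and the receptor Esrrg (2.79) rose, while Ppara fell (-2.15). All 3 were low in both stages, with mean levels of 0.304 and 1.34 CPM for Ppargc1a in myoblasts and myotubes. Esrrg read 0.0508 and 0.343 CPM and Ppara 0.657 and 0.148 CPM.

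Of 37 glycolysis and glycogen genes 12 were higher, a share near the 33.9% of all genes, and 16 were lower, against 28.8% of all genes. The muscle isoforms Pgam2 (6.19), Pygm (6.09), Pfkm (2.16) and Hk2 (1.91) rose. The general isoforms Pgam1 (-1.25), Pygb (-1.44) and Eno1 (-1.16) fell, whereas Pfkp, paired here with Pfkm, was slightly higher (0.20). Pkm (-1.16) and Ldha (-0.95) fell as well. Creatine kinase Ckm measured 5.19, 7.65 and 5.28 CPM in myoblasts and 209, 241 and 212 CPM in myotubes (log2 fold change 5.19, SE 0.24, adjusted p = 4.83e-11), and myoglobin, Mb, rose by 5.52. All myotube libraries were above all myoblast libraries for Ckm. In lipid metabolism the fatty acid carriers Cd36 (6.26) and Fabp3 (3.99) rose and the kinase Pdk4 fell (-3.0).

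Cholesterol synthesis fell as a list: 24 of 26 genes were lower and 1 higher, with a median of -0.85. Acat2, the cytosolic thiolase that makes acetoacetyl-CoA, measured 117, 126 and 129 CPM in myoblasts and 25.3, 31.5 and 24.1 CPM in myotubes (log2 fold change -2.20, SE 0.09, adjusted p = 1.27e-13). Every myotube library lay below every myoblast library. The sterol carrier Stard4 (-2.05) and the regulator Srebf2 (-0.65) fell as well, and Dhcr7 was the 1 called higher (0.30), a call lost with scaling by library totals (0.06). CCAAT was in 78.3% of the list's promoter windows and the sterol element CACCCCAC in 8.70% (2 of 23 windows), against 33.8% and 2.58% of all windows. The sterol element was not particular to this list: its share in other lists ran from 0% (fusion genes, for example) to 13.2% (thin filament genes).

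Pairs of related genes were compared by the share of the muscle gene in the summed level of both genes per kilobase of exon. A share alone does not tell whether the partner fell. The share of Acta1 against Actb went from 2.29% to 84.3%, that of Myl1 against Myl6 from 2.46% to 82.1%, and that of Actc1 against Actg1 from 28.8% to 98.1%. In metabolism the share of Pgam2 against Pgam1 went from 1.82% to 76.4%, of Pygm against Pygb from 2.71% to 83.8%, and of Ckm against Ckb from 17.4% to 84.0%. For calcium handling, Atp2a1 against Atp2a2 went from 14.7% to 74.3% and Ryr1 against Ryr3 from 48.8% to 95.5%. The partners Actb, Myl6, Actg1, Pgam1 and Pygb fell. In contrast, Ckb (0.57), Atp2a2 (0.99) and Ryr3 (0.86) rose, so in these pairs the muscle gene rose more than a rising partner. Other pairs were far from a switch at day 3. Cox7a1, Cox8b, Chrne and Dmd stayed the minor partner, and the insulin-responsive glucose transporter Slc2a4 made up 1.49% of its pair with Slc2a1 in myoblasts and 1.39% in myotubes. The adenine nucleotide carrier Slc25a4 held 50.1% and then 52.1% of its pair with Slc25a5. The chromatin pair Ezh2 and Ezh1 turned over as well, with Ezh1 at 46.3% and then 78.4%.

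**Figure D3:**
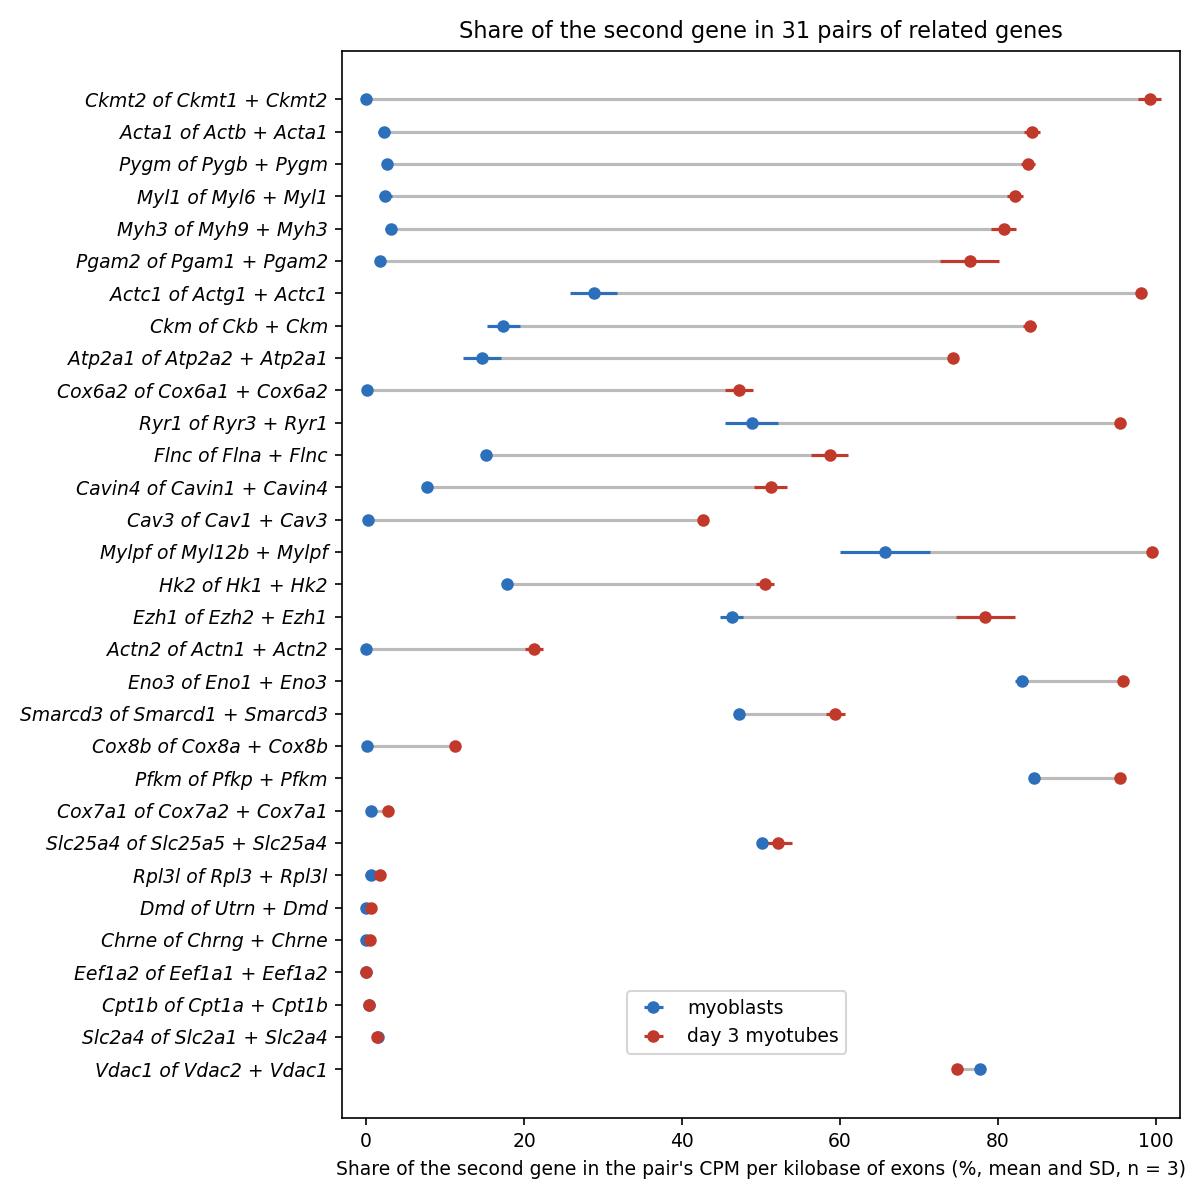
Share of the muscle or late gene of each of 31 pairs in the pair's summed CPM per kilobase of exons (percent, mean and SD of 3 libraries), in control myoblasts (blue) and day 3 myotubes (red). Acta1, Pygm, Myl1 and Myh3 move from below 4% to above 80%, while Slc2a4, Eef1a2 and Cpt1b stay near 0 and Vdac1 moves slightly down.

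Genes of the stress-fibre cytoskeleton and of SRF and YAP targets fell: 21 of 28 were lower and 3 higher (median -0.98), and their share of counts went from 2.58% to 1.17%. Tagln, transgelin, measured 274, 285 and 278 CPM in myoblasts and 36.1, 58.7 and 49.4 CPM in myotubes (log2 fold change -2.54, SE 0.12, adjusted p = 6.86e-12). Cnn1 measured 28.1, 30.3 and 29.6 CPM and 0.189, 0.320 and 0.234 CPM (log2 fold change -6.89, SE 0.52, adjusted p = 1.85e-08). Both were lower in all 3 myotube libraries. Myl9 (-2.75) and Actg1 (-2.13) fell, and Ankrd1, a YAP target also known from the sarcomere, rose (2.59). CATTCC was in 44.8% of these promoter windows and 12.6% of all windows.

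Nuclear regulators shifted in composition. Of 21 splicing regulators 6 rose and 11 fell. Rbm24 (4.79), Rbfox1 (4.55) and Rbm38 (2.7), which act in muscle splicing, rose, and 9 of 10 general repressors and SR proteins fell, among them Ptbp1 (-1.27) and Hnrnpa1 (-1.34). Of 47 chromatin genes 26 fell and 12 rose, against 28.8% and 33.9% of all genes. Those that fell included Uhrf1, the nucleosome-binding Hmgb2 (-3.38), the Polycomb partner Phf19 (-2.89) and the maintenance methyltransferase Dnmt1 (-2.51), and Dpf3, a SWI/SNF subunit of muscle, rose (4.50). Ezh2 fell by 1.23 on the log2 scale.

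Secreted and immune genes moved less uniformly. The chemokines Ccl2 (-3.27), Cxcl5 (-3.17) and Cxcl1 (-2.82) fell, and Ccn3 (7.03), Fndc5 (3.75), Lif (1.91) and Vegfa (1.46) rose. Of 20 tested interferon and antigen-presentation genes 9 fell and 4 rose (median -0.44; 14 and 3 with scaling by library totals), with Oasl2 (-4.16) and Ifit1 (-2.88) lowest. Among all genes 28.8% fell and 33.9% rose. Of 22 noncoding genes in the list of long RNAs 6 rose and 4 fell, and Malat1 (0.69 (adjusted p = 0.182)) and Neat1 (-0.22 (adjusted p = 0.384)) were not called by the fit to all 18 libraries. Of 78 ribosomal protein genes 37 rose and 9 fell (median 0.22), but 17 rose and 21 fell with scaling by library totals (median -0.02), and processed copies of these genes make their counts uncertain.

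**Figure D4:**
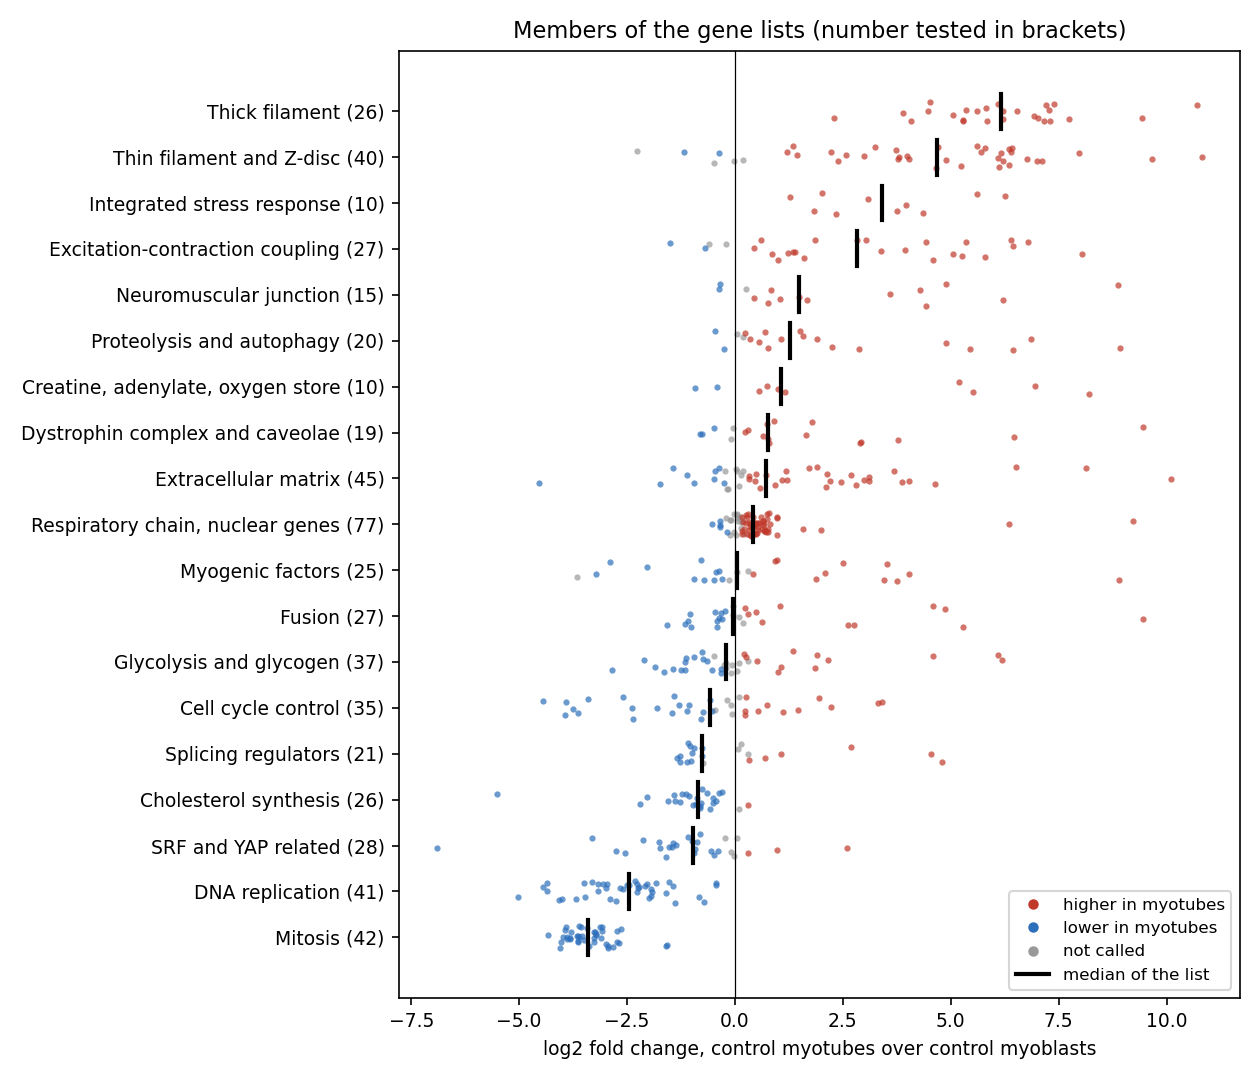
log2 fold change (control myotubes over control myoblasts) of each tested member of 19 gene lists, with the number tested in brackets and the median as a bar. Points are red where called higher, blue where called lower and grey where not called. Thick filament genes all lie right of 0 and replication and mitosis genes all left of it.

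The labelled cell types were checked against their markers. All 8 myotube markers were higher, and their summed level went from 769 to 927 CPM in myoblasts to 14728 to 15284 CPM in myotubes. The 8 markers of myoblasts and reserve cells summed to 411 to 435 CPM and then 466 to 479 CPM: Pax7 and Myf5 fell, Sdc4 was called lower (-0.12 (adjusted p = 0.0415)), a call lost without any 1 of the 6 control libraries (adjusted p from 0.0684 to 0.105), with no low-count filter (adjusted p = 0.181) and with the replicate block (adjusted p = 0.0534), Spry1 and Heyl rose, Cd34 was not called (0.07 (adjusted p = 0.511)), and Calcr and Chrdl2 had 0 counts. Markers of endothelial cells summed to 0.0577 to 0.337 CPM in myoblasts and 1.71 to 2.05 CPM in myotubes, with all 3 tested members called higher from these low levels. Those of leukocytes reached at most 1.44 CPM in sum and those of neural and Schwann cells at most 1.46. Smooth muscle markers were abundant, at 5126 to 5368 CPM in sum and then 4064 to 4459 CPM, with 1 higher and 4 lower. Emcn, Ptprc, Adgre1, Rbfox3 and Sox10 had 0 counts in all 6 libraries. Many of the genes named overlap a gene model on the other strand, and whether strand was used in counting is not given in the sources used here.

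The control response was set beside those of the clones, which share the model and the same control libraries. A clone's response is its own myotubes against its own myoblasts. The difference from the control response was called for 39.0% of genes in the overexpressor and 50.1% in the knockout. For the integrated stress response all 10 genes responded less in each clone, with medians of 3.41 (control), 0.62 (overexpressor) and 0.23 (knockout). Trib3 went from 3.99 to 4.71 CPM to 299 to 352 CPM in the control, from 4.97 to 5.91 CPM to 11 to 15 CPM in the overexpressor, and from 6.6 to 10.3 CPM to 6.57 to 7.18 CPM in the knockout. Myotube libraries of the control thus exceeded those of each clone by more than 10 times. Atf4 reached 1140 to 1176 CPM in control myotubes, 396 to 463 CPM in overexpressor and 430 to 474 CPM in knockout myotubes.

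For matrix genes the median response was 0.71 for control cells, -0.18 for the overexpressor and -0.40 for the knockout clone. The difference from the control response was called for 38 of the 45 genes in each clone, against 39.0% and 50.1% of all genes. It was below 0 for 28 genes in the overexpressor and 34 in the knockout. A difference below 0 means a smaller rise, a fall in place of a rise, or a deeper fall. Fn1 in myotubes read 24010 to 26211 CPM for control cells, 4792 to 5531 CPM for the overexpressor and 4295 to 4631 CPM for the knockout clone. Muscle genes were not alike between the clones: the thick filament median was 6.15 for control cells, 7.07 for the overexpressor and 2.30 for the knockout clone. Knockout myoblasts already held 2791 to 3697 CPM of Myh3 and 1082 to 1249 CPM of Myog, against 36.3 to 60.1 CPM and 90.3 to 126 CPM in control myoblasts. The fall of mitosis genes had medians of -3.40, -2.62 and -2.37 in the control, overexpressor and knockout, and that of cholesterol genes -0.85, -0.12 and -0.18. Each clone is 1 line from 1 cell, so line and edit cannot be told apart, and a difference between a clone and the sorted population is not one between a clone and an unedited clone.

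**Figure D5:**
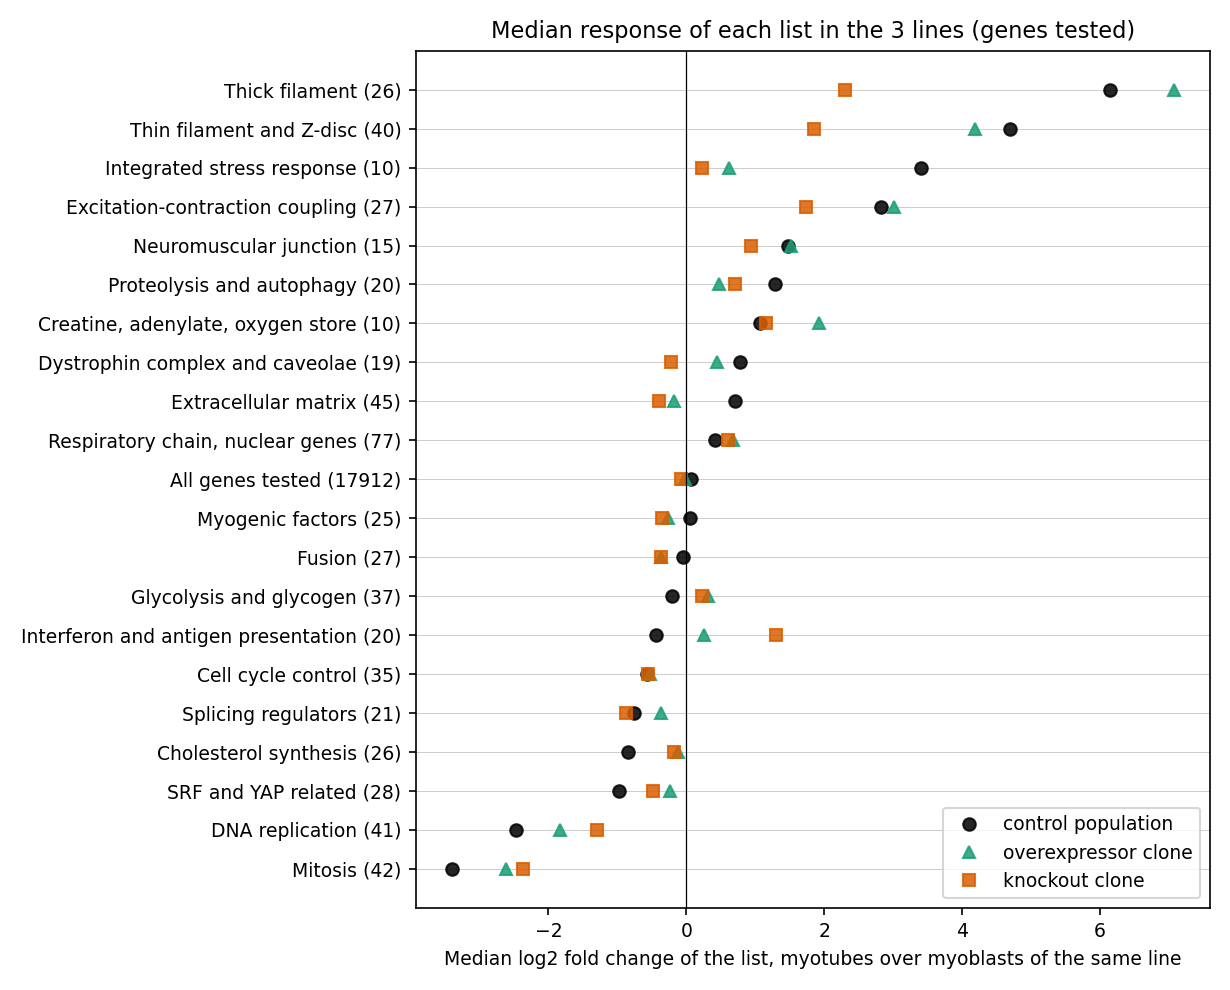
Median log2 fold change of myotubes over myoblasts in 20 gene lists and over all 17912 genes tested, for the control population (circles), the overexpressor clone (triangles) and the knockout clone (squares). The stress response median is 3.41 in the control and below 1 in both clones, and the thick filament median is lowest in the knockout.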

How the data were processed

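Per the labels' protocols, polyadenylated RNA was extracted with TRIzol from control myoblasts and day 3 myotubes, 3 libraries each. The deposited values are raw counts per Ensembl gene made by the authors. Per the submitters' processing notes, these name STAR 2.7.9a, featureCounts (Subread 2.0.3), FastQC 0.11.7, DESeq2 1.32.0 and mm10, and the strand setting and annotation release are not given in the sources used here. The authors' deposited table of variance-stabilised log2 values was not used. Gene names, positions (GRCm38) and exon lengths came from GENCODE M21, with 260 IDs unmatched, and promoter windows from RefSeq (GRCm38.p6). All 18 libraries were fitted with edgeR 4.0.16 (TMM scaling, filterByExpr, robust quasi-likelihood test, Benjamini-Hochberg adjustment, threshold 0.05). Log2 fold changes are from this fit, SE is the standard error, and every adjusted p is from this test. TMM factors were 1.06 to 1.08 in myoblasts and 0.895 to 0.917 in myotubes. Where all libraries of a stage held 3 counts or fewer, the fold is a lower bound against the CPM that 3 counts give in the shallowest library of that stage. On simulated control data, 50%, 72%, 94% and 98% of 50 genes changed 1.5-, 2-, 4- and 8-fold were called, with 8 of 17090 unchanged genes. Only these few genes were changed there, whereas 62.8% of genes were called in the control comparison. The Benjamini-Hochberg adjustment is stricter where few genes change, so these shares do not give the share missed or falsely called in the real data. The self-test ran on 17286 genes.

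The comparison, gene lists and pairs were chosen with earlier results of these data known, and the libraries in it follow from their labels. Genes are named by a rule: the 12 highest and 12 lowest fold changes (at least 5 CPM in the higher stage, no overlap of stages), the 10 greatest rises and falls in CPM, fixed key genes, the 3 highest and 3 lowest called genes of each list, and the pairs. Other genes named were chosen after their values were seen. Some genes that the rule names are not reported here. The alternatives were DESeq2 size factors, library totals, no low-count filter, only the 6 control libraries, DESeq2 1.42.0, a replicate block, each control library left out, glmTreat, and transcript length for the pairs.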

Additional observations from a re-analysis of the deposited data

Results flagged for a closer look

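The response of a gene to differentiation differed between lines for 6977 genes in the overexpressor clone and 8978 genes in the knockout clone (adjusted p below 0.05 for the difference of log2 fold changes, edgeR's quasi-likelihood test). These comparisons share the 6 control libraries. Among the genes named, the following were called in opposite directions in the control and in a clone, each by at least 2-fold, and the values are the clone's log2 response minus the control's. Chance flags some genes at this threshold, and line and edit cannot be told apart.

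Several genes fell in the control and rose in a clone. Smooth-muscle type genes did so in the overexpressor: Cnn1 by a difference of 9.53, Myl9 of 5.26, Tagln of 4.66 and Acta2 of 2.83. Avpr1a differed by 11.23, Fgfr4 by 6.99, Igf2bp1 by 4.93 and Ppara by 3.58, also in the overexpressor. The muscle chloride channel gene Clcn1 differed by 4.16 in the overexpressor and 4.30 in the knockout, Ldhb by 4.23 and 2.88, and cardiac troponin Tnni3 by 2.26 and 3.64. The interferon-response genes Oasl2 and Ifit1 differed by 5.96 and 5.36 in the knockout.

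Other genes rose in the control and fell in a clone. Timp3 differed by -6.01 in the overexpressor and -4.24 in the knockout, and Lpl by -3.37 and -3.43. In the overexpressor Scara5 differed by -12.61, Gdf15 by -6.12, Sfrp1 by -5.36 and Igfbp5 by -2.71. In the knockout Col15a1 differed by -10.26, Slc7a11 by -7.06, Sfrp2 by -3.46 and Vegfa by -2.57. Differences of genes close to 0 counts in a stage depend on the fit's prior count. Groups of 3 libraries are too small for the test of a single outlying sample used here.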

How the results depend on the processing

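Direction and call were kept by 319 of 336 named genes in all alternatives. Calls in the control comparison numbered 11178 with DESeq2 size factors, 11427 with library totals, 11101 with no filter, 11422 with only the 6 control libraries and 11290 with DESeq2's Wald test, against 11240, and 10522 to 10724 with a control library left out. Testing against a 2-fold change with glmTreat left 3541 of 5139 genes. With the replicate block the calls were 10940 (5914 higher, 5026 lower), 5085 at least 2-fold, 6598 for the difference of the overexpressor and 8481 for that of the knockout, and of the named genes Sdc4 lost its call (adjusted p = 0.0534). Deviations of same-lettered control libraries correlated at -0.068, 0.067 and -0.023, so the letters do not pair the samples. The 4 uncalled genes that changed sign were Myod1 (-0.19 with library totals, -0.02 with the control libraries alone, from -0.01 to 0.12 with a library left out, -0.00 without myoblast A and -0.01 without myotube A), Cdh15 (-0.05 with library totals), Cd34 (-0.17 with library totals) and Hdac2 (-0.04 with library totals). Scaling by library totals moved 11 list counts by over 1.5 times, among them thin filament genes lower (4), excitation-contraction genes lower (4), respiratory chain higher (35) and lower (15), and ribosomal proteins (17 and 21). The longest transcript as length moved 37 of 62 pair shares by over 1 SD. The cause was not tested. Neat1 was called in the control libraries alone (-0.28, adjusted p = 0.0475 by edgeR).

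Limits are these. Each stage is 3 libraries of 1 population at 1 time, serum and time in culture change with stage, and counting noise limits genes under the floor of 3 counts. No alternative scaling fixes the total RNA per cell.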

Other observations

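Lists for cell types other than skeletal muscle held a few genes that moved. The 6 cardiomyocyte markers summed to 6.64 to 7.09 CPM in myoblasts and 60.4 to 77.5 CPM in myotubes. Myh6, the alpha cardiac myosin, was the 1 member called higher (log2 fold change 7.40). The other 3 tested members were called lower, and Nppa and Myl7 had 0 counts. Chondrocyte markers fell from 88.1 to 105 CPM to 46.8 to 54.2 CPM, with 3 of 3 tested lower, among them Sox9 (-0.93) and Col2a1 (-3.54), and Acan, Col9a1 and Matn1 had 0 counts. Osteoblast markers summed to 98.6 to 106 CPM and then 72.3 to 75.8 CPM, and Alpl, alkaline phosphatase, rose among them (2.62) while Runx2 fell (-0.46). Epithelial markers went from 50.2 to 53.1 CPM to 15.1 to 16.7 CPM, with Krt14 lower (-1.75) and Cdh1 higher (1.18), a call of edgeR's quasi-likelihood test that was lost without myotube library C (adjusted p = 0.0718).

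Of 11 histone deacetylase genes 4 rose and 6 fell, against 33.9% and 28.8% of all genes. Hdac9 (2.02), Hdac11 (1.29), Hdac4 (0.79) and Hdac8 (0.67) rose. Hdac7 (-1.62), Hdac6 (-1.09), Hdac1 (-0.85), Hdac10 (-0.59), Hdac5 (-0.53) and Hdac3 (-0.22) fell, the last not called without myotube library C (adjusted p = 0.0534 by edgeR), and Hdac2 was not called (0.20 (adjusted p = 0.301)). The imprinted noncoding RNA H19, which neighbours Igf2, was higher by 0.28 on the log2 scale, against 2.39 for Igf2, and that call was lost with scaling by library totals (0.04).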
